A study of Homo sapiens with 4 samples.

Results

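EGFR, the gene of the epidermal growth factor receptor, lies on band 7p11 of the short arm of chromosome 7, and 9 genes beside it were followed here in 2 human LAD (lung adenocarcinoma) cell lines. They were chosen by position beside EGFR and are SEC61G, LANCL2, VOPP1, EGFR-AS1, MRPS17, NIPSNAP2, CCT6A, SUMF2 and CHCHD2. All 9 were found among the 60558 Ensembl identifiers of each library. Of these, 8 had reads and were among the 19314 genes that passed the filter on low counts, and EGFR-AS1 was listed at 0 in all 4 libraries.

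Each line gave a vector library (A549-vector and HCC827-vector) and a myr-AKT1 library (A549-myr-AKT1 and HCC827-myr-AKT1), so there was 1 library per condition. A549 and HCC827 cells were grown in the same medium and were transduced either with an empty vector or with a construct for myr-AKT1, an AKT1 that carries a myristoylation signal and stays active at the membrane. Whether the transduced cells were pools or single clones is not given in the sources used here, and each library stands for 1 culture. Depth ranged from 16322183 reads in HCC827-myr-AKT1 to 33530317 reads in A549-vector.

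When a stretch of a chromosome is amplified, a cell carries extra copies of every gene on that stretch, including genes that have no part in the growth advantage of the driver gene. HCC827 cells are known to carry an activated and amplified EGFR gene. Passenger genes beside EGFR, among them SEC61G, LANCL2 and VOPP1, are well known to be copied along with it in glioblastoma. The comparison of HCC827 with A549 cells therefore asks how far the neighbours of EGFR differ in mRNA, and the comparison of myr-AKT1 with vector asks whether that level moves with AKT activity. DNA copy number was not analysed here.

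The sample labels held for the genes checked. AKT1 was higher with myr-AKT1 in both lines, with log2 ratios of 0.57 (A549) and 1.14 (HCC827). CDKN2A, which A549 cells have lost, had 0 reads in both A549 libraries and 2974 and 3839 rescaled reads in the HCC827 libraries. The 5 epithelial markers checked (EPCAM, KRT8, KRT18, KRT19 and CDH1) were present in all 4 libraries. PTPRC, the leukocyte marker, had 0 to 7.18 rescaled reads, while the endothelial marker PECAM1 had 9.47 to 122 and the fibroblast marker COL1A1 had 49.5 to 685. Both were higher with myr-AKT1 in each line, and their part in the results below was not tested.

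The members lie within 1.08 Mb of the start of EGFR in GRCh38. SEC61G, on the minus strand from 54752250 to 54759974, is the only one on the side of the short-arm tip, 267 kb from the start of EGFR. EGFR itself runs from 55019017 to 55211628 on the plus strand, and EGFR-AS1 lies inside it on the minus strand, from 55179750 to 55188977. LANCL2 (55365337 to 55433737, plus strand) and VOPP1 (55436056 to 55572988, minus strand) follow on the side of the centromere, with starts 346 and 417 kb from that of EGFR. After a stretch of 379 kb from the end of VOPP1 come NIPSNAP2 (55951793 to 56000181), MRPS17 (55951877 to 55956500), CCT6A (56051685 to 56063989) and SUMF2 (56064002 to 56080670), all on the plus strand, and CHCHD2 (56101573 to 56106476) on the minus strand.

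These genes have unrelated tasks. SEC61G encodes the small gamma subunit of the SEC61 channel, through which new proteins enter the endoplasmic reticulum. LANCL2 is a relative of bacterial lanthionine synthetases, and VOPP1 is an endosomal and lysosomal membrane protein. MRPS17 is a protein of the small mitochondrial ribosomal subunit, NIPSNAP2 a mitochondrial protein, and CHCHD2 a mitochondrial coiled-coil-helix protein that also acts on transcription of a cytochrome oxidase subunit. CCT6A is the zeta subunit of the CCT chaperonin, which folds actin and tubulin. SUMF2 is a paralog, located in the endoplasmic reticulum, of the enzyme that activates sulfatases, and EGFR-AS1 is a long non-coding RNA antisense to EGFR.

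The start regions of 4 members are printed because SEC61G and VOPP1 were among the members with the widest gap between the lines, and because MRPS17 and NIPSNAP2, whose GENCODE starts lie 84 bases apart, had unlike gaps. Each RefSeq window (GRCh38.p14) holds 250 bases before and 50 bases after the start, 5′ to 3′ on the strand of the gene. The windows are chr7:54759162-54759461 (minus strand) for SEC61G, chr7:55572453-55572752 (minus strand) for VOPP1, the most upstream of its 7 windows, chr7:55951627-55951926 (plus strand) for MRPS17 and chr7:55964335-55964634 (plus strand) for NIPSNAP2. Capitals mark the GC box (GGGCGG) and the CCAAT box (CCAAT), read on both strands.
SEC61G: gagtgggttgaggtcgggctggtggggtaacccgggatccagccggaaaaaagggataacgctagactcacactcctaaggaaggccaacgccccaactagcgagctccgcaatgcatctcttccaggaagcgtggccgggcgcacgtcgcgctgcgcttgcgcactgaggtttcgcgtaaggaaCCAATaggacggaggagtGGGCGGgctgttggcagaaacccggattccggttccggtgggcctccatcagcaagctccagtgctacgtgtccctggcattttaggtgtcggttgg
VOPP1: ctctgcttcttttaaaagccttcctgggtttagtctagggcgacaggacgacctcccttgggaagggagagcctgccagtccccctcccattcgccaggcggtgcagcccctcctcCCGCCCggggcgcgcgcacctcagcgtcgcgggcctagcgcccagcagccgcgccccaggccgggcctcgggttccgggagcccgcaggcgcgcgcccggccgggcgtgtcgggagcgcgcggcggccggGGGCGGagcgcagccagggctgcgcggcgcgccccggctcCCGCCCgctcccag
MRPS17: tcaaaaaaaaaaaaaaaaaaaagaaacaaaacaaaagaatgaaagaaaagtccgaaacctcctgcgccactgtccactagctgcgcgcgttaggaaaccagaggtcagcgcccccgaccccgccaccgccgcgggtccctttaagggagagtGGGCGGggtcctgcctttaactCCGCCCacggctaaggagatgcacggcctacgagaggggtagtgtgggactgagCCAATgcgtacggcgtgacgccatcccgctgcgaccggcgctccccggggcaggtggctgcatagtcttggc
NIPSNAP2: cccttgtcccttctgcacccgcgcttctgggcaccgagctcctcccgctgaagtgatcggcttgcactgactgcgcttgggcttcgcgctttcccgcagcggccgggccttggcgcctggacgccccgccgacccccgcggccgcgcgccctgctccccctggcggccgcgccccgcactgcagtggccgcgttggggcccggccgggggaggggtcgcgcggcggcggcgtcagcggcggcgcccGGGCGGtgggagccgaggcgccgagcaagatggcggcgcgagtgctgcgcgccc

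The GC box was found in all 4 printed windows, 1 time for SEC61G, 3 times for VOPP1, 2 times for MRPS17 and 1 time for NIPSNAP2, and 44.9% of the 34796 RefSeq windows of this length hold it. SEC61G and MRPS17 each had 1 CCAAT box, which 34.6% of all windows hold. Neither the TATA box (TATAAA) nor the ETS core (CCGGAAG) was present in these 4 windows, and these motifs occur in 11.6% and 10.2% of all windows. Windows of SUMF2 and CHCHD2 were also scored but are not printed. That of SUMF2 had 2 GC boxes and 1 CCAAT box, and that of CHCHD2 had 0 GC boxes, 1 CCAAT box and 2 ETS cores. The printed windows held 24 (SEC61G), 40 (VOPP1), 25 (MRPS17) and 47 (NIPSNAP2) CpG dinucleotides, against a median of 14 over all windows. RefSeq places the NIPSNAP2 start 12708 bases beyond that of MRPS17, so the 2 annotations disagree on whether these genes share a start region.

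In the comparison of the lines, all 8 members with reads were higher in HCC827 cells in the vector pair and in the myr-AKT1 pair. All 8 were more than 0.5 log2 units higher in both pairs, as were 21.9% of the 19314 genes tested. SEC61G, LANCL2 and VOPP1, the 3 nearest to EGFR, were 19.1-fold to 30.2-fold higher, and the 5 members further toward the centromere were 1.70-fold to 5.36-fold higher. In bulk RNA, more cells that express a gene and more RNA per cell cannot be told apart. Over the 8 members, the median difference, HCC827 minus A549, was 2.15 on the log2 scale, beside -0.02 over the 19314 genes tested and 0.38 over the 984 tested genes of chromosome 7. The split into nearer and further members follows position, but it was chosen after the values had been seen. Values are rescaled reads, that is reads divided by size factors estimated over all 4 libraries, and differences are on the log2(rescaled reads + 1) scale, while folds are ratios without a pseudocount with 95% Clopper-Pearson intervals that cover counting error only.

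SEC61G had 925 rescaled reads with vector and 947 with myr-AKT1 in A549 cells, and 26290 with vector and 28576 with myr-AKT1 in HCC827 cells. Both HCC827 libraries were far above both A549 libraries, by 28.4-fold (26.9 to 30.1) with vector and 30.2-fold (28.3 to 32.3) with myr-AKT1. LANCL2 had 452 and 272 rescaled reads in A549 cells (vector and myr-AKT1, in this order), and 11309 and 6521 in HCC827 cells. It was 25-fold higher in the vector pair (23.1 to 27.1) and 24.0-fold higher in the myr-AKT1 pair (21.2 to 27.3), so the level with myr-AKT1 was lower in both lines while the gap between the lines was alike. VOPP1 had 1835 and 1720 rescaled reads in A549 cells (vector and myr-AKT1, in this order), and 36041 and 32865 in HCC827 cells. Its folds were 19.6 (18.9 to 20.5) and 19.1 (18.2 to 20.1), the lowest of these 3 genes.

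EGFR, between SEC61G and LANCL2, had 6257 and 7573 rescaled reads in A549 cells (vector and myr-AKT1, in this order), and 170943 and 78692 in HCC827 cells. In the vector pair it was 27.3-fold higher in HCC827 cells (26.7 to 27.9), within the range of SEC61G and LANCL2. In the myr-AKT1 pair it was 10.4-fold higher (10.1 to 10.6), below all 3 of the nearest members. By read number EGFR was number 3 of all genes in HCC827-vector and number 10 in HCC827-myr-AKT1, and SEC61G, LANCL2 and VOPP1 together took 0.305% of the reads of HCC827-vector against 0.0131% in A549-vector.

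**Figure D1:**
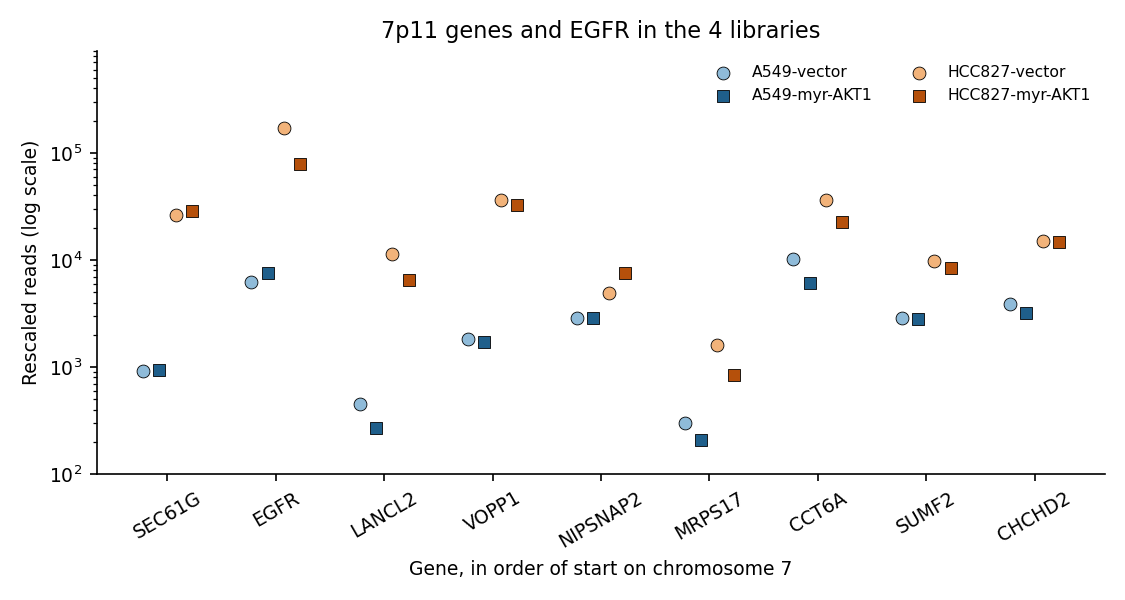
Rescaled reads (log scale) of 8 members and EGFR in each of the 4 libraries, in order of gene start; each point is 1 library, circles are vector and squares myr-AKT1. The gaps between the A549 and the higher HCC827 points are widest at SEC61G, EGFR, LANCL2 and VOPP1 and narrowest at NIPSNAP2 (2886 and 2859 against 4898 and 7531).

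Beyond VOPP1 the differences were smaller. From VOPP1 to NIPSNAP2, the next member, the difference fell by 3.53 on the log2 scale in the vector pair and by 2.86 in the myr-AKT1 pair. MRPS17 had 302 and 206 rescaled reads in A549 cells (vector and myr-AKT1, in this order), and 1621 and 838 in HCC827 cells, which gave folds of 5.36 (4.82 to 5.98) and 4.06 (3.46 to 4.80). NIPSNAP2 had 2886 and 2859 in the A549 libraries and 4898 and 7531 in the HCC827 libraries, with folds of 1.70 (1.63 to 1.77) and 2.63 (2.52 to 2.76). The 2 libraries of A549 were nearly level for NIPSNAP2, and the smaller gap in the vector pair came with the lower of its HCC827 values.

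CCT6A had 10188 and 6048 rescaled reads in A549 cells (vector and myr-AKT1, in this order), and 36051 and 22773 in HCC827 cells, with folds of 3.54 (3.47 to 3.61) and 3.77 (3.65 to 3.88). SUMF2 had 2891 and 2780 against 9867 and 8440, with folds of 3.41 (3.29 to 3.54) and 3.04 (2.90 to 3.18). CHCHD2 had 3849 and 3200 against 15097 and 14589, with folds of 3.92 (3.803 to 4.05) and 4.56 (4.38 to 4.75). The folds of these 3 genes lay close together.

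The fit of limma over all 4 libraries, with terms for cell line and treatment, called 8 of the 8 members higher in HCC827 cells at a Benjamini-Hochberg adjusted p under 0.05, where 13.9% of the 19314 genes tested were called higher and 15.5% lower. The difference was 4.87 for SEC61G (standard error 0.23, limma adjusted p = 0.000243), 4.61 for LANCL2 (0.23, adjusted p = 0.000269) and 4.28 for VOPP1 (0.23, adjusted p = 0.000297). It was 2.22 for MRPS17, 2.08 for CHCHD2, 1.87 for CCT6A and 1.69 for SUMF2, with limma adjusted p from 0.00174 to 0.00333. NIPSNAP2 had the smallest difference, 1.08 (0.26), and the largest limma adjusted p of the members, 0.0244. By size alone, 7 of 8 members were more than 1 log2 unit higher in both pairs, NIPSNAP2 being the exception in the vector pair, where 13.2% of all genes tested were. The share was 18.4% on chromosome 7. More than 2 log2 units in both pairs were reached by 4 of 8 members, against 7.02% of the genes tested, and more than 4 log2 units by 3 of 8 members, against 3.16%.

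The fit has 1 residual degree of freedom, and limma moderates it with a variance borrowed from other genes (median prior degrees of freedom 5.26). Its standard errors and p-values therefore rest largely on that borrowed variance. They do not measure the spread between cultures. Leaving out any single library, which leaves no room for the treatment term, lowered the number of members called by limma to 0 without A549-vector, 0 without A549-myr-AKT1, 2 without HCC827-vector (SEC61G and VOPP1) and 1 without HCC827-myr-AKT1 (SEC61G), while the differences stayed between 0.77 and 5.01 and positive for every member.

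Many genes that are silent in 1 of the lines differ by as much, so the sizes were also read among the 10951 genes with a mean of at least 100 rescaled reads in each line, a set chosen after the data were seen. There, 22 genes (0.201%) were more than 4 log2 units higher in HCC827 cells in both pairs, and 3 of the 22 were SEC61G, LANCL2 and VOPP1. By mean difference these 3 were number 24, 30 and 38, and EGFR was number 45. MRPS17 was number 230, CHCHD2 278, CCT6A 355, SUMF2 454 and NIPSNAP2 1136.

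Compared per length of exon, the members changed order between the lines. The scale here is RPKM, recovered reads divided by the length of annotated exon and by the library total. In A549-vector the levels ran from CHCHD2 (153) and CCT6A (108) through SUMF2 (28.9), NIPSNAP2 (20.9), SEC61G (20.6) and VOPP1 (14.1) to MRPS17 (5.89) and LANCL2 (3.47). In HCC827-vector they ran from CHCHD2 (608), SEC61G (591), CCT6A (388) and VOPP1 (280) to SUMF2 (99.7), LANCL2 (87.7), NIPSNAP2 (35.9) and MRPS17 (32.0). SEC61G was the fifth of these in A549-vector and the second in HCC827-vector. With myr-AKT1 it had 19.9 RPKM (A549) and 657 RPKM (HCC827), the fourth and the first place. Neighbours in the order whose 2 libraries overlapped, and which cannot be ranked, were NIPSNAP2 and SEC61G in A549 cells, and CHCHD2 and SEC61G, CCT6A and VOPP1, SUMF2 and LANCL2, and LANCL2 and NIPSNAP2 in HCC827 cells.

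EGFR-AS1 had 0 reads in all 4 libraries, also where EGFR had 193419. A count of 0 allows up to 3 reads, which is 0.0314 to 0.0645 RPKM for its 2849 exonic bases. Of those bases, 186 are shared with exons of EGFR on the opposite strand, and the strand setting used for counting is not given in the sources used here. No fold can be given for this gene.

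The reach of the difference along chromosome 7 was read from the tested genes in order of start. Outward from EGFR, 4 genes on the side of the short-arm tip and 2 on the side of the centromere were more than 1 log2 unit higher in HCC827 cells in both pairs before the first that was not, a run of 7 genes with EGFR. On the tip side these were ENSG00000218586, SEC61G-DT, the divergent lncRNA at the SEC61G start, SEC61G itself, and LINC01446, 1.36 Mb from EGFR, with 0 reads in both A549 libraries and 285 and 129 rescaled reads in HCC827 cells. It was at least 130.596-fold and 41.857-fold higher against 3 reads per library, the limit used here for a count of 0, and the lower limits of the 95% counting intervals were 105.6-fold and 33.3-fold. ENSG00000218586, a processed pseudogene, had 4 and 1 reads in A549 cells (vector and myr-AKT1, in this order) and 49 and 9 in HCC827 cells. It passed limma (adjusted p = 0.0154) but not DESeq2 (adjusted p = 0.0967). SEC61G-DT had 7 and 6 against 181 and 62. Both, like LINC01446, passed the filter on low counts through their HCC827 reads, so a higher value there was largely set by it. The run ended on the tip side at COBL, which was 1.08 log2 units higher in the vector pair and 0.24 in the myr-AKT1 pair. On the centromere side it ended after VOPP1 at FKBP9P1, a pseudogene with 7.07 to 40.0 rescaled reads whose difference was -1.196 in the vector pair and -0.68 in the myr-AKT1 pair, with a limma adjusted p of 0.317.

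FKBP9P1 can share reads with its parent gene FKBP9, so its place in the order is uncertain. Among protein-coding genes alone, a restriction chosen after the data were seen, the run went from SEC61G through ZNF713, a zinc finger gene, and ended at NIPSNAP2. On the tip side it then reached 0.27 Mb from EGFR instead of 1.36 Mb. ZNF713 had 90.3 and 92.3 rescaled reads in the A549 libraries and 582 and 379 in the HCC827 libraries, a difference of 2.35 (limma adjusted p = 0.00677). Its difference was closer to those of the further members than to that of VOPP1. Of the other tested genes between NIPSNAP2 and CHCHD2, PSPH, an enzyme of serine synthesis, differed by 1.22, and PHKG1, a subunit of phosphorylase kinase, by 3.42 from few reads. The small nucleolar RNA SNORA22B, which lies inside CCT6A on the same strand, differed by 2.39. It also had few reads, 14 and 8 in A549 cells and 52 and 41 in HCC827 cells. All 3 passed limma, with adjusted p of 0.0127, 0.0071 and 0.0334, but SNORA22B did not pass DESeq2 (adjusted p = 0.111).

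**Figure D2:**
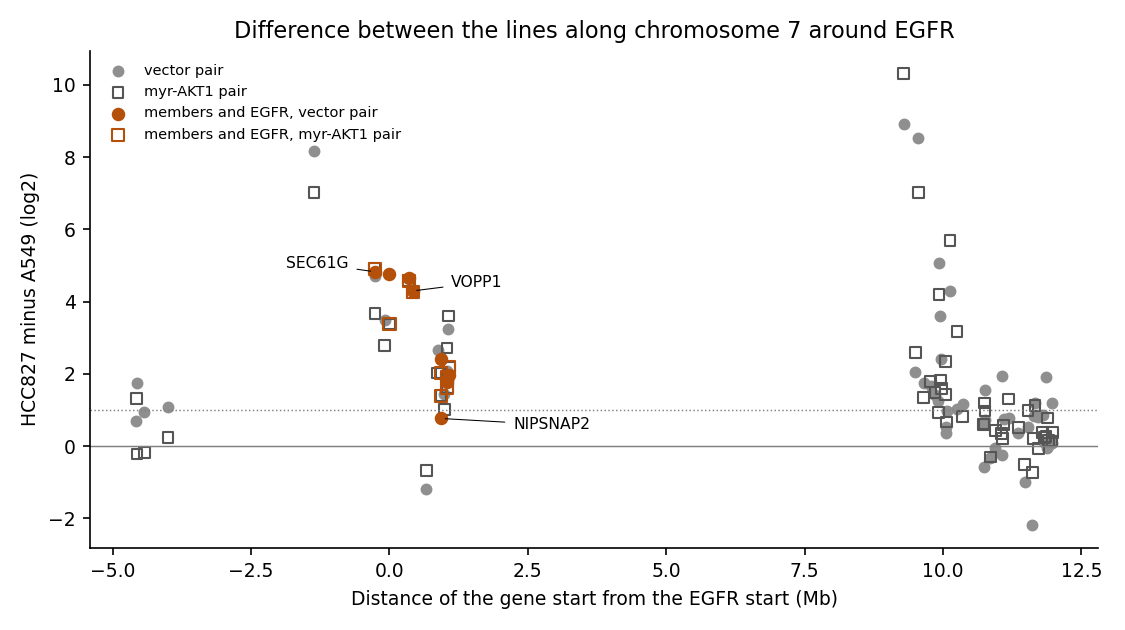
Difference between the lines (HCC827 minus A549, log2 of rescaled reads + 1) for each tested gene around EGFR, against the distance of its start from the EGFR start in Mb; filled circles are the vector pair, open squares the myr-AKT1 pair, and the dotted line marks 1. Points of the members and EGFR are coloured; those from SEC61G to VOPP1 lie above 3 and those of the further members between 0.76 and 2.42.

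In windows of 5 Mb along the chromosome, the median difference was 2.07 over 8 genes in the 5 Mb before the EGFR start, 2.22 over 13 genes in the 5 Mb after it and 2.16 over 10 genes in the next window. The neighbouring windows had medians of 0.42 (17 genes) and 0.52 (35 genes). The other windows of chromosome 7 ranged from -0.61 to 1.60, and the 2 highest, at 1.33 and 1.60, held 33 and 16 genes. In the window before EGFR, 4 of the 8 genes lay 4 to 5 Mb away, with a median of 0.71. None of those was more than 1 log2 unit higher in both pairs. The others lay within 1.36 Mb of EGFR, so the median of 2.07 falls between unlike groups. In the window after the EGFR start, all 13 genes started within 1.08 Mb of it. They include EGFR and every tested member but SEC61G, so the median of 2.22 does not describe the rest of that window. Across the chromosome 20% of the tested genes were called higher in HCC827 cells by limma, against 13.9% of all genes.

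**Figure D3:**
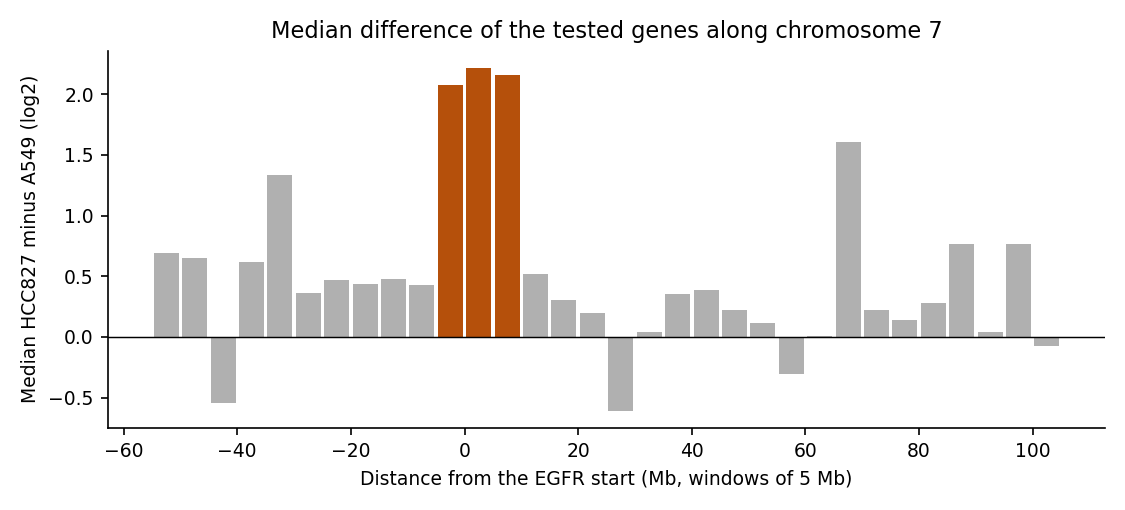
Median difference (HCC827 minus A549, log2) of the tested genes in windows of 5 Mb along chromosome 7, against the distance from the EGFR start; coloured bars are the 3 windows from 5 Mb before to 10 Mb after it. Their medians of 2.07, 2.22 and 2.16 stand above all other windows, of which the highest is 1.60. In the window before the EGFR start, 4 of 8 genes were more than 1 log2 unit higher in both pairs. The 13 genes of the window after it all start within 1.08 Mb of the EGFR start.

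Of the members, 3 encode subunits of complexes whose other subunits are encoded elsewhere, so these were compared within the complex. CCT6A was 1.87 log2 units higher in HCC827 cells, while the 7 other CCT subunits had a median of -0.11 and ranged from -0.38 (CCT3) to 0.15 (CCT8). None of the 7 was called by limma in either direction, with adjusted p of 0.285 for CCT3 and 0.671 for CCT8. SEC61G was 4.87 log2 units higher, while 10 genes of the translocon and its accessory proteins had a median of -0.10, with 1 called higher and 2 called lower. The highest of these was SSR4, a subunit of the translocon-associated TRAP complex, at 1.35, and the lowest was TRAM1, a membrane protein that helps chains enter the channel, at -2.35. SEC61B, the beta subunit of the same channel, had 1426 and 1326 rescaled reads in the A549 libraries and 1034 and 1480 in the HCC827 libraries.

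MRPS17 was 2.22 log2 units higher, against a median of 0.07 over 30 other genes of the small mitochondrial ribosomal subunit, 2 of them called higher and 1 lower by limma. The highest of these was MRPS28, at 1.49, and the lowest was MRPS12, at -1.24. In all 3 complexes, 0 of the other subunits exceeded the 7p11 member. The gap between member and median was 1.97 for CCT6A, 4.97 for SEC61G and 2.15 for MRPS17, and it was alike in both pairs, with 1.999 and 1.86 for CCT6A, 5.22 and 4.83 for SEC61G, and 2.37 and 1.96 for MRPS17. No test was made of these gaps.

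**Figure D4:**
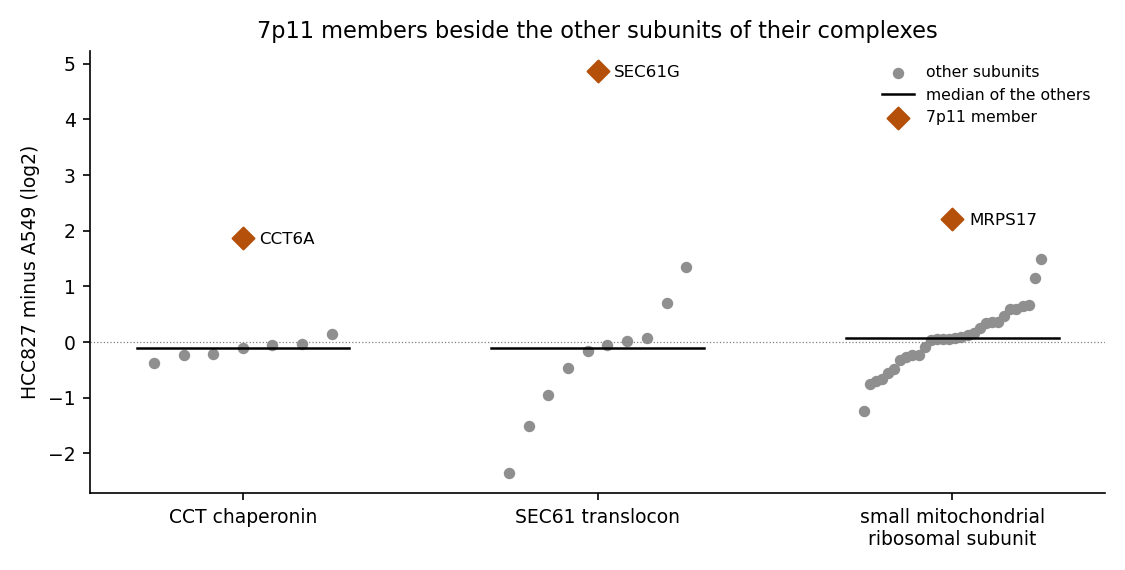
Difference between the lines (HCC827 minus A549, log2) of CCT6A, SEC61G and MRPS17 (diamonds) beside the other subunits of their complexes (points) and the median of those (bars), each value the mean of the vector and myr-AKT1 pairs. The diamonds, at 1.87, 4.87 and 2.22, lie above every point, while the bars lie at -0.11, -0.10 and 0.07.

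The paralogs of the members, encoded elsewhere, were not higher in HCC827 cells by the test. LANCL1, the close relative of LANCL2, was lower by limma, with 3849 and 3402 rescaled reads in the A549 libraries and 814 and 1266 in the HCC827 libraries (difference -1.83, adjusted p = 0.00502). LANCL3 had too few reads for the test. NIPSNAP3B was also lower (-2.35, limma adjusted p = 0.0278). NIPSNAP1 (0.40), NIPSNAP3A (-0.85), SUMF1 (-0.49), CHCHD10 (0.13) and CCT6B (-1.23) did not pass, with limma adjusted p from 0.136 to 0.796. Sequences related to the members can draw reads from them. Their named pseudogenes held little, at most 3.12% of the reads of CCT6A in any library (CCT6P1 to CCT6P4), 0.545% of those of CHCHD2 and 0.0545% of those of MRPS17.

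Other members share exonic bases with a neighbour as well. MRPS17 shares 22.4% of its exonic bases with ENSG00000249773 and 54 bases with NIPSNAP2 on the same strand, while SUMF2 shares 388 bases with PHKG1 and SEC61G 22 bases with SEC61G-DT, both on the opposite strand. How reads in shared bases were assigned is not given in the sources used here, and the level of MRPS17 is therefore uncertain.

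Within the lines, the members past 1 log2 unit with myr-AKT1 were counted beside the share over all genes. In A549 cells, where log2 ratios are of the deposited values of myr-AKT1 over vector, 0 of 8 members went past 1 log2 unit in either direction, where 24.7% of the 18688 genes in that comparison did (14.8% higher, 9.86% lower). In HCC827 cells 1 of 8 did, MRPS17, which lies on the threshold at -1.0004 (-1.14 to -0.86), where 26.3% of 17306 genes did (14% higher, 12.4% lower). The members had a median of -0.28 (A549) and -0.23 (HCC827), beside -0.04 over all genes in both. With 1 library per condition there is no replicate check on these ratios, and their intervals are counting intervals.

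LANCL2 was lower with myr-AKT1 in both lines, with a log2 ratio of -0.84 in each (-1.05 to -0.63 in A549 cells and -0.89 to -0.79 in HCC827 cells). CCT6A was lower as well, with -0.85 (-0.90 to -0.81) and -0.71 (-0.74 to -0.68), as was MRPS17, with -0.65 (-0.91 to -0.41) in A549 cells. For CCT6A the values were those of its complex, since the 7 other CCT subunits had a median of -0.84 (range -1.18 to -0.69) in A549 cells, beside -0.67 (-1.22 to -0.31) for HCC827 cells. The 30 other genes of the small mitochondrial ribosomal subunit had medians of -0.51 and -0.40, so that MRPS17 was lower than the median in both lines, and in HCC827 cells only 1 of the 30 was lower than it.

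VOPP1 (-0.20 and -0.18 in A549 and HCC827 cells), SUMF2 (-0.16 and -0.27) and CHCHD2 (-0.37 and -0.10) had small ratios below 0 in both lines. SEC61G had a ratio of -0.07 in A549 cells, with an interval of -0.19 to 0.05, against 0.07 in HCC827 cells (0.05 to 0.10), and with size factors over all 4 libraries its A549 value was 0.03. The other translocon genes had medians of 0.06 and 0.50. NIPSNAP2 was the member whose lines diverged, with -0.12 (-0.19 to -0.05) for A549 and 0.57 (0.52 to 0.63) for HCC827 cells.

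EGFR did not follow its nearest neighbours in HCC827 cells. Its log2 ratio was -1.17 (-1.18 to -1.15), against 0.07 for SEC61G, -0.84 for LANCL2 and -0.18 for VOPP1, and in A549 cells it was 0.17 (0.13 to 0.22). The counting intervals of EGFR and of the 3 members do not overlap in HCC827 cells, but they cover no spread between cultures. Over both lines, the limma fit gave EGFR a difference of -0.42 for myr-AKT1 against vector (adjusted p = 0.640).

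**Figure D5:**
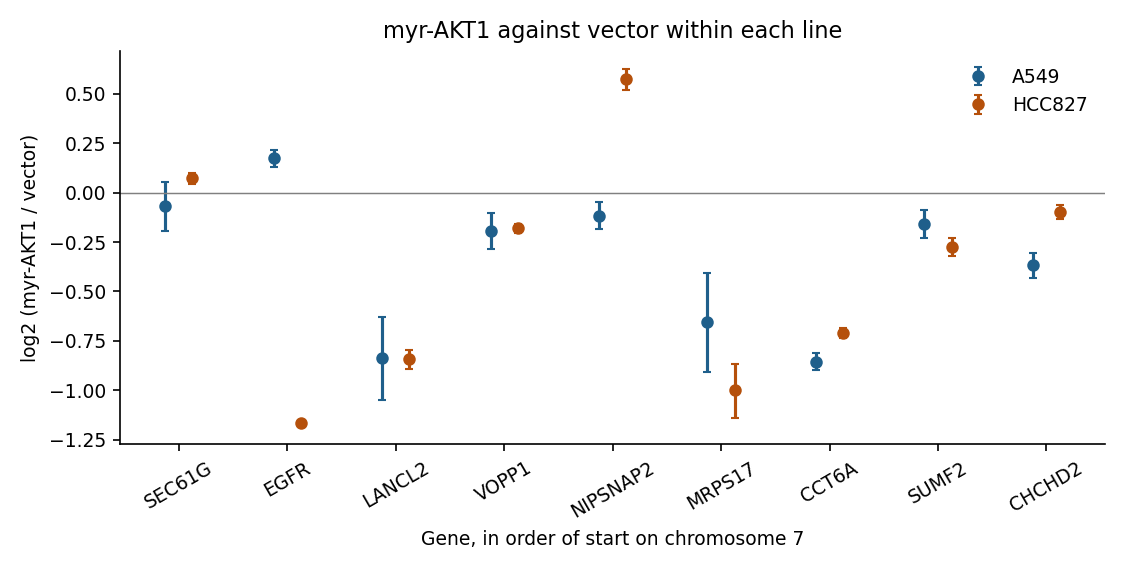
Log2 ratio of myr-AKT1 to vector in A549 and HCC827 cells for 8 members and EGFR, in order of gene start; points are single library pairs and bars are 95% counting intervals. LANCL2, MRPS17 and CCT6A lie at -0.65 or lower in both lines, SEC61G lies near 0, and NIPSNAP2 and EGFR lie on opposite sides of 0 in the 2 lines.

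Over both lines, the same limma fit called 0 of the 8 members for myr-AKT1 against vector at an adjusted p under 0.05, where 0.834% of all genes tested were called (0.311% higher, 0.523% lower). The lowest limma adjusted p of the members were those of LANCL2 (-0.76, adjusted p = 0.174), CCT6A (-0.71, adjusted p = 0.223) and MRPS17 (-0.75, adjusted p = 0.261). The quasi-likelihood test of edgeR and the Wald test of DESeq2, on the recovered reads, called 0 of 8 each. With 1 residual degree of freedom this does not show that the members were unaffected.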

How the data were processed

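RNA of 4 cultures was measured in 4 strand-specific libraries. The study describes selection of polyadenylated RNA, the labels removal of ribosomal RNA. Per the labels, reads were mapped with Bowtie2 to hg38 and counted per Ensembl gene with HTSeq; Bowtie2 does not align across introns, so reads over exon junctions may be lost. Although the methods name RPKM, the signal deposited by the authors holds read counts scaled by a size factor that was estimated within each line. Dividing by the value of 1 read gave whole reads (tolerance 0.001) for all values but 1 in each vector library. Genes were named from GENCODE 44 (297 of 60558 identifiers unmatched).

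To compare lines, reads were divided by median-of-ratios size factors over all 4 libraries; the deposited values are 1.199 and 1.12 (A549, vector and myr-AKT1) and 0.899 and 0.869 (HCC827) times these rescaled reads. The reported fit was limma with a mean-variance trend on log2(rescaled reads + 1), with cell line and treatment terms, over 19314 genes kept by filterByExpr of edgeR. Ratios within a line used deposited values without a pseudocount, and their background holds genes with reads in both libraries and a mean of at least 10. On simulated counts with 19448 genes, limma recovered 50 of 50 genes with a line difference of 4 log2 units, 50 of 50 with 2, 44 of 49 with -2 and 34 of 50 with 1, with 7 false calls. The simulation gave every gene the same dispersion and changed far fewer genes between the lines than were called here. Its recovery and false calls therefore need not hold for these data. Intervals cover counting error only.

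The members, the lists of complex subunits and paralogs, and the tests were chosen with earlier results of these data known. Genes named are the members, EGFR, tested genes within 3 Mb of EGFR, the extremes of each list, the paralogs, label checks and the 3 genes nearest in profile. SEC61B, and COBL, which lies beyond 3 Mb and ends a run, were chosen after their values were seen. Alternatives were TMM, total reads, size factors without chromosome 7, deposited values, other pseudocounts, filters and thresholds, edgeR, DESeq2, fits without a term and without each library. Python 3.11.15 (pandas 2.3.3, scipy 1.17.1, numpy 2.4.6, matplotlib 3.10.9) and R 4.3.3 (DESeq2 1.42.0, limma 3.58.1, edgeR 4.0.16) were used.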

Additional observations from a re-analysis of the deposited data

Results flagged for a closer look

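The log2 ratio of myr-AKT1 to vector had opposite signs in the 2 lines, with counting intervals that exclude 0 in both, for NIPSNAP2 (-0.116 for A549, 0.572 for HCC827) and for EGFR (0.173 for A549, -1.17 for HCC827). Whether the lines differ in this ratio was not tested, since each line has 1 library per condition. With size factors over all 4 libraries the A549 value of NIPSNAP2 was -0.01, and that of EGFR was 0.28.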

How the results depend on the processing

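All 8 members kept the direction of the difference between the lines under the 14 alternatives run for the limma fit. The number called was 8 in the reported fit, 6 without the treatment term (NIPSNAP2 and CCT6A were lost, with limma adjusted p of 0.0927 and 0.0525, within ranges over all alternatives of 0.000564 to 0.361 and 1.03e-12 to 0.373), and 0 to 2 when each library was left out. It was 8 under the other 9 alternatives, edgeR and DESeq2 included. Over all genes, 2675 were called higher and 3000 lower, against 1343 and 1645 without the treatment term, and 74 to 363 and 63 to 543 without each library. The median member difference of 2.15 was 2.22 with total reads and 1.76 on the values as deposited, which are not scaled between lines. A threshold of 2 log2 units left 4 members instead of 7. The gap of CCT6A to its complex was 1.86 in the myr-AKT1 pair alone.

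For myr-AKT1 against vector, a threshold of 0.5 counted 3 members in A549 cells and 4 in HCC827 cells, against 0 and 1 in the report. The share over all genes was not computed at 0.5, so these counts cannot be read as a trait of the members. In HCC827 cells, MRPS17 fell out, leaving 0, with size factors over all 4 libraries, total reads, a pseudocount of 1 or 10, or a threshold of 2. No member was called for myr-AKT1 under any of the 10 alternatives run. Over all genes that term called 60 higher and 101 lower, against 29 and 58 among genes averaging at least 50 rescaled reads, 213 and 251 with total reads, 196 and 228 with edgeR, 621 and 518 with DESeq2, 1287 and 799 without a filter, and 0 and 0 with a pseudocount of 0.1 or without the line term. No paired analysis was possible because the labels carry no replicate numbers to block on, beyond the matching by line and treatment that the terms of the reported fit already make.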

Other observations

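Windows of 1 Mb with at least 5 tested genes were ranked over the genome by their median difference between the lines, which puts the 7p11 windows in context. The window that holds EGFR, LANCL2, VOPP1, MRPS17 and NIPSNAP2 had a median of 2.35 over 7 genes and was number 21 of 1432, and the next, with CCT6A, SUMF2 and CHCHD2, had 1.97 over 6 genes and was number 27. Higher windows included one on chromosome 19 with 6 genes and a median of 7.88. Another, number 4, was on chromosome 7 itself, at 144 Mb, with a median of 5.91 over 9 genes. All 9 were more than 1 log2 unit higher in both pairs. The window of 5 Mb that holds it, 85 to 90 Mb from the EGFR start, had a median of only 0.77 over 53 genes. Beyond the centromere, the window 5 to 10 Mb from the EGFR start held 10 tested genes, of which 9 were more than 1 log2 unit higher in HCC827 cells in both pairs.

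The genes whose profile over the 4 libraries lay nearest to the median profile of the 8 members, among 14037 genes with a mean of at least 50 rescaled reads, were ASRGL1 (root mean square distance 0.082 on the log2 scale), ENSG00000241978, which has no symbol in the annotation used (0.089), and AZIN1 (0.095). ASRGL1 lies on chromosome 11 and AZIN1 on chromosome 8. With 4 libraries, 21 genes lay within 0.2 of that profile.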
